A study of Mus musculus with 4 samples.

Results

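Receptors with which phagocytes sense microbes and damaged tissue were followed by 9 genes, Cd14, Tlr2, Tlr4, Tlr13, Nlrp3, Trem1, Trem3, Fpr1 and Fpr2, chosen by symbol from the 31053 features of 4 single-cell count matrices. All 9 were found, each as 1 row. The cells came from C57BL/6J mice aged 6 to 8 weeks. Mice of the EBA group received 250 µg of IgG purified against vWFA2-COL7, a domain of collagen VII, 3 times a week for 2 weeks, a model of epidermolysis bullosa acquisita, in which autoantibodies cause blisters. Mice of the IgG group received control rabbit IgG on the same schedule. Whole blood after lysis of red cells and ear skin were taken from both groups, and the cells of 3 mice were pooled for each, which gave 4 libraries, named here by injection and tissue (for example EBA skin). Each group is therefore 1 pooled library, no test between groups was possible, and every interval below covers counting error only. Skin was digested with enzymes and blood was not, so digestion and tissue cannot be told apart.

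The proteins divide into families. CD14 hands lipopolysaccharide and other lipids to Toll-like receptors, of which TLR4 with its partner MD-2 senses lipopolysaccharide, TLR2 senses bacterial lipopeptides with TLR1 or TLR6, and the endosomal TLR13 of mice senses bacterial ribosomal RNA. NLRP3 is the cytosolic sensor that nucleates the inflammasome, which activates caspase-1 and so the cytokine IL-1β, while TREM1 and TREM3 are surface receptors that signal through the adaptor DAP12 and amplify Toll-like receptor responses. FPR1 and FPR2 are G protein-coupled receptors that guide neutrophils and monocytes towards formylated peptides of bacteria and mitochondria.

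The libraries held between 22705634 and 90829463 UMIs, each UMI a captured molecule, and 3325 to 5106 barcodes a library were kept. Between 8 and 15 barcode sequences were shared by each pair of libraries. Neutrophil-like cells numbered 452 in IgG blood, 811 in EBA blood and 883 in EBA skin, with median depths of 2424, 9963 and 3024 UMIs, and all 10 neutrophil markers, S100a8, S100a9 and Csf3r among them, were detected in each. IgG skin held 1 such cell and enters no neutrophil comparison. Different clusters hold the class: cluster 8 most of IgG blood, clusters 10 and 14 most of EBA blood, and cluster 35 nearly all of EBA skin. Clusters were formed without the 9 genes. The UMI count of a gene, summed over the cells of a class in a library, is given as CPM, scaled by the usual factor to the total UMIs of that sum. These are tags from transcript 3′ ends, so gene length does not enter. A gene was called higher or lower where the ratio of 2 sums was at least 2, or at most 0.5, and its 95% interval excluded 1. It counted as measured with 10 UMIs over both sums and 10 CPM in the higher one. A relative ratio is divided by the median ratio of all measured features.

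In GRCm38, Fpr1 (chr17:17876471-17883940, minus strand) and Fpr2 (chr17:17887824-17893952, plus strand) lie beside each other on opposite strands of chromosome 17. Trem1 (chr17:48232768-48246924, plus strand) and Trem3 (chr17:48247777-48258841, plus strand) follow each other on the plus strand of the same chromosome. Tlr2 (chr3:83836272-83841767, minus strand), Tlr4 (chr4:66827584-66930284, plus strand), Tlr13 (chrX:106143204-106160493, plus strand) and Nlrp3 (chr11:59541568-59566956, plus strand) are on chromosomes of their own. All 9 genes are annotated as protein coding. Fpr2 overlaps Fpr3 on the same strand, and 4.92% of the 31-base words in its last 500 transcript bases occur in another gene, Gm5966, so its counts are less certain. That share was 0 to 1.82% for the other 8 genes. RefSeq promoter windows of GRCm38.p6, from 250 bases before the start to 50 after it, were matched for 6 of the 9 genes. Tlr2, both starts of Nlrp3, Fpr1 and Fpr2 are shown, because Nlrp3 had the highest ratio of skin to EBA blood neutrophils among the matched genes, Tlr2 was high outside phagocytes, and Fpr1 and Fpr2 are neighbours. Capitals mark matches on either strand to the kappaB consensus of NF-kB, to AP-1 (TGANTCA) and to the PU.1 core (GAGGAA), which were held by 8.46%, 7.81% and 28.3% of all 32851 windows of this length.
Tlr2, chr3:83841559-83841858, minus strand: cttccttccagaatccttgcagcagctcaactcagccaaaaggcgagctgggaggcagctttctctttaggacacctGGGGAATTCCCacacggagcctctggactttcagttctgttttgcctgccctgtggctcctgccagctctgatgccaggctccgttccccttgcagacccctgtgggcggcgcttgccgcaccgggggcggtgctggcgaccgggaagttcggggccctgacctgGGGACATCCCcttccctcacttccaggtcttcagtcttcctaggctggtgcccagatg
Nlrp3 upstream start, chr11:59541319-59541618, plus strand: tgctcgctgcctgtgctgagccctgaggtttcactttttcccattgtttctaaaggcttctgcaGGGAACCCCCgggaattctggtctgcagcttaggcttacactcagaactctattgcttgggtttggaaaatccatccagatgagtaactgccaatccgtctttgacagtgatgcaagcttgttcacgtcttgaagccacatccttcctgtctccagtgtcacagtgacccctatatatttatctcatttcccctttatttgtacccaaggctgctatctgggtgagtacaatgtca
Nlrp3 downstream start, chr11:59542436-59542735, plus strand: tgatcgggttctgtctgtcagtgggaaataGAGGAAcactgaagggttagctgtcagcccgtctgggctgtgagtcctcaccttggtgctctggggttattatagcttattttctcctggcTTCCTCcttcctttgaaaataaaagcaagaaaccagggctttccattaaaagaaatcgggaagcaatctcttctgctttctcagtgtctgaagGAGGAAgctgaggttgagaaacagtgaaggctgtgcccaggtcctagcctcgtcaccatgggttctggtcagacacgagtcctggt
Fpr1, chr17:17883890-17884189, minus strand: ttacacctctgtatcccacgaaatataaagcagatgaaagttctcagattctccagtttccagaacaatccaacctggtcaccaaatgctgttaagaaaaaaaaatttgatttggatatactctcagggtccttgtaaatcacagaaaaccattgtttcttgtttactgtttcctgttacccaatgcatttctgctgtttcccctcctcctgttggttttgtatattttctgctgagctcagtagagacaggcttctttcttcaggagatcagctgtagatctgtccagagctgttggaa
Fpr2, chr17:17887574-17887873, plus strand: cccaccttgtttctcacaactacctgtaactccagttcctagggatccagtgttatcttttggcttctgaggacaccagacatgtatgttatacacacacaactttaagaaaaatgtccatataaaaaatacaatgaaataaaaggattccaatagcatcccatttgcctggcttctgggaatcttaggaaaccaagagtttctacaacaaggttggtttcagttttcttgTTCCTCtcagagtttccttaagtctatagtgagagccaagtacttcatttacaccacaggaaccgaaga
Tlr2 held 3 kappaB matches, 173, 172 and 8 bases before the start, of which the first pair overlap. The upstream start of Nlrp3 held 1, 186 bases before it, and the downstream start held 3 PU.1 matches and no kappaB match. Fpr2 held 1 PU.1 match 19 bases before its start, and Fpr1 held none of the 3 motifs. No AP-1 match occurred in any of the 7 windows of the 6 genes. A match describes these letters alone.

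Neutrophil-like cells of EBA skin carried more of nearly every one of these receptor transcripts than those of EBA blood, led by Cd14 and Nlrp3. Of the 9 genes, 8 were called higher and none lower, where 33.1% of the 5382 measured features were called higher and 22.0% lower. The median log2 ratio of the 9 was 2.10, against 0.26 over all measured features. Relative to that median, 7 were higher, where 27.6% of features were, and Trem3 was lower, where 26.7% were.

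Cd14 (chr18:36725067-36726798, minus strand) stood at 65.8 CPM in IgG blood, 159 in EBA blood and 6445 in EBA skin, 40.6-fold above EBA blood (95% interval 38.5 to 42.8). The skin pool lay far above both blood pools. Cd14 alone gave 64.5% of the UMIs of the 9 genes in neutrophil-like cells of EBA skin, against 13.98% in EBA blood and 4.92% in IgG blood. Tlr2 was at 72.4, 82.0 and 352 CPM in the same order, 4.29-fold above EBA blood (3.92 to 4.70). Tlr4, the lowest of the 9 in each neutrophil pool, was at 37.8, 19.8 and 60.5 CPM, and its ratio of 3.05 had an interval of 2.49 to 3.74. Tlr13 was at 121, 41.5 and 169 CPM, 4.07-fold above EBA blood (3.57 to 4.63). The order of the pools thus differed by gene: Tlr4 and Tlr13 were lowest in EBA blood and Cd14 in IgG blood, and the 2 blood pools were not apart for Tlr2.

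Nlrp3 was at 268 CPM in IgG blood, 32.9 in EBA blood and 768.5 in EBA skin, a ratio of 23.4 between the EBA pools (20.8 to 26.4). By CPM, much of that distance lies in the low level of EBA blood, since the ratio of EBA skin to IgG blood was 2.87 (2.56 to 3.23). Relative to the median of all features, the log2 ratio was 4.28 between the EBA pools. It was then -1.94 in EBA over IgG blood and 2.40 in EBA skin over IgG blood, so this division depends on the scaling. Trem1 was at 188, 105 and 735 CPM, 6.98-fold higher in EBA skin than in EBA blood (6.48 to 7.52). Its neighbour Trem3 went the other way, at 320, 310 and 159 CPM. Its ratio of 0.51 (0.47 to 0.56) just missed the limit, and was called lower at 0.43 relative to the median of all features. Fpr1 was at 98.7, 167 and 813 CPM, 4.87-fold higher (4.58 to 5.19), and Fpr2 at 166, 219 and 486 CPM, 2.22-fold higher (2.08 to 2.37). Fpr2 was not called relative to the median, at 1.85.

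**Figure D1:**
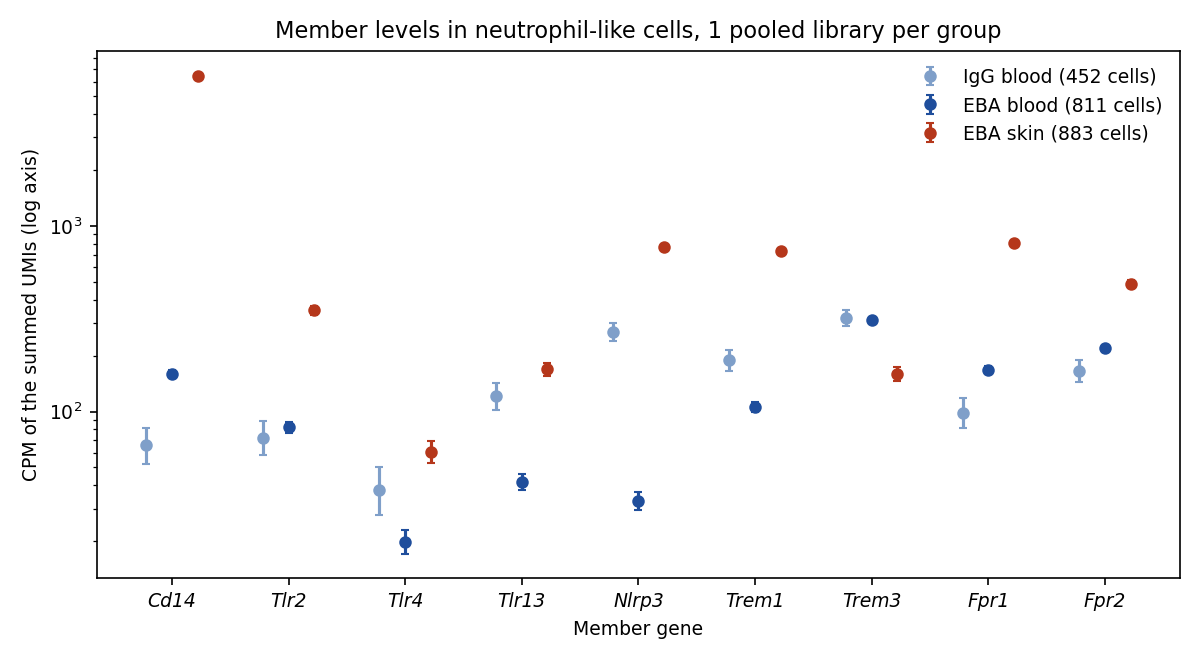
CPM of the 9 genes (log axis) in neutrophil-like cells of 1 pooled library per group, with exact Poisson 95% intervals. Cd14 in EBA skin lies at 6445 against 159 in EBA blood, and Trem3 is the gene whose EBA skin point lies below both blood points.

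Neutrophil-like cells of EBA skin also held keratinocyte markers at 1691 CPM in sum, against 11.0 in EBA blood, and neutrophil markers at 165743 CPM against 388278. With an estimate of free RNA subtracted from both sums, the log2 ratios ran from -0.91 for Trem3 to 5.39 for Cd14, against -0.96 and 5.34 without, and 8 genes were again called higher. Against EBA blood cells of cluster 10 alone, 8 were called higher. Against those of cluster 14 alone, 7 were, with Fpr2 at a log2 ratio of 0.94 not called and Trem3 called lower at -1.24. Both cluster choices were made after seeing the data.

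Depth differs between the pools, so cells were also thinned to 500 UMIs each, which all of them reached. Cd14 was then seen in 90.2% of the neutrophil-like cells from EBA skin (88.0% to 92.0%, exact binomial), 8.02% of EBA blood and 3.76% of IgG blood. The share was 0.353% in EBA skin keratinocyte-like cells, a cell type taken here to lack it. Without thinning the Cd14 shares were 98.3%, 51.2%, 12.0% and 10.9%, at median depths of 3024, 9963, 2424 and 34256 UMIs. Nlrp3 was seen in 27.9%, 1.48% and 13.3% of the thinned cells, Trem1 in 28.5%, 7.15% and 12.4%, and Fpr1 in 28.0%, 8.02% and 2.88%. Trem3 was seen in 7.36%, 14.2% and 14.4%, below both blood pools. In EBA skin against EBA blood, 8 shares were higher and that of Trem3 was lower, all with intervals apart. A neutrophil-like cell of EBA skin showed a median of 2 of the 9 transcripts at that depth, and 3.51% showed none. The median was 0 in both blood pools, where 55.1% (EBA) and 51.1% (IgG) showed none.

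**Figure D2:**
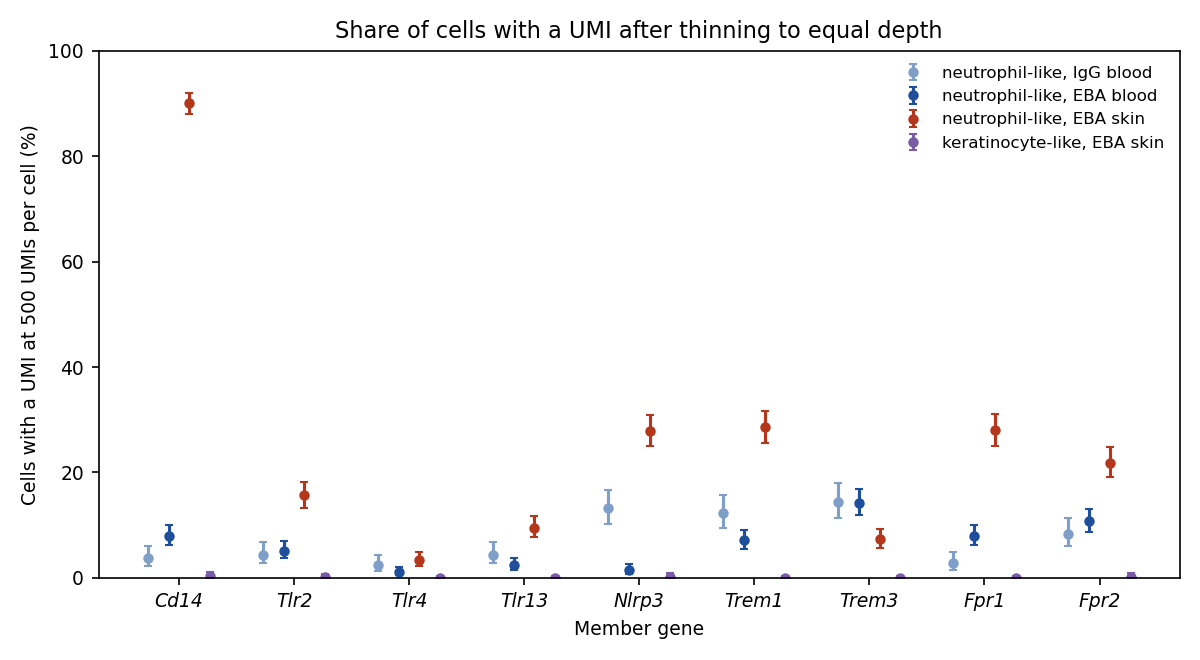
Percent of cells with at least 1 UMI of each gene after thinning to 500 UMIs per cell, with exact binomial 95% intervals, in neutrophil-like cells of 3 libraries and in keratinocyte-like cells of EBA skin. Cd14 reaches 90.2% in EBA skin, while the keratinocyte-like points lie near 0 for all 9 genes.

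Among blood neutrophils the 2 injections gave a split picture. In EBA over IgG blood, Cd14 was called higher at 2.42-fold (1.93 to 3.06), and Tlr13 and Nlrp3 were called lower at ratios of 0.34 (0.28 to 0.42) and 0.12 (0.10 to 0.14). Over all 5985 measured features, 4.44% were called higher and 54.1% lower, so 2 of 9 lower is below the share of all features. The median log2 ratio of all features was -1.08, and S100a8 with the other neutrophil markers took 388278 CPM in EBA against 121076 in IgG blood. Relative to that median, 5 genes were higher (Cd14 at 5.12, Fpr1 at 3.58, Fpr2 at 2.80, Tlr2 at 2.40 and Trem3 at 2.05) and Nlrp3 alone was lower, at 0.26, where 14.4% of features were higher and 12.2% lower. Platelet transcripts reached most of these cells: 87.1% of EBA and 83.9% of IgG neutrophil-like barcodes held a Pf4 or Ppbp UMI. Among the 105 and 73 without one, the log2 ratio of Cd14 was -0.96 in place of 1.27, so its direction turned, and 4 genes were called lower and none higher. That of Nlrp3 was -5.49 in place of -3.03.

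Within EBA blood, the 2 neutrophil clusters differed. Cluster 14, led by the granule genes Camp, Ngp and Ltf, held Cd14 at 79.1 CPM and Nlrp3 at 8.48, and cluster 10, led by Gm5483 and Il1b, held them at 209 and 48.3. Trem1 was at 57.5 and 135 CPM in the same order. Trem3 and Fpr2 were instead higher in cluster 14, at 376 against 269 CPM and 253 against 199 CPM. Against cluster 14 the skin log2 ratio of Nlrp3 was 6.50, and against cluster 10 it was 3.99.

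EBA skin neutrophils were also set against IgG blood, the same skin library as above. Cd14 (97.99-fold), Fpr1 (8.24), Tlr2 (4.87), Trem1 (3.90), Fpr2 (2.93) and Nlrp3 (2.87) were called higher, and Trem3 lower at 0.497 (0.436 to 0.568). Of all 6302 measured features, 14.5% were called higher and 46.6% lower. Tlr4 and Tlr13 were not called, at 1.60 and 1.40. Relative to the median of all features, 8 genes were higher (26.9% of features) and none lower (24.7%), with Trem3 at 0.918. The lower call of Trem3 is thus lost when scaled to that median, and its CPM ratio lies just inside the limit.

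**Figure D3:**
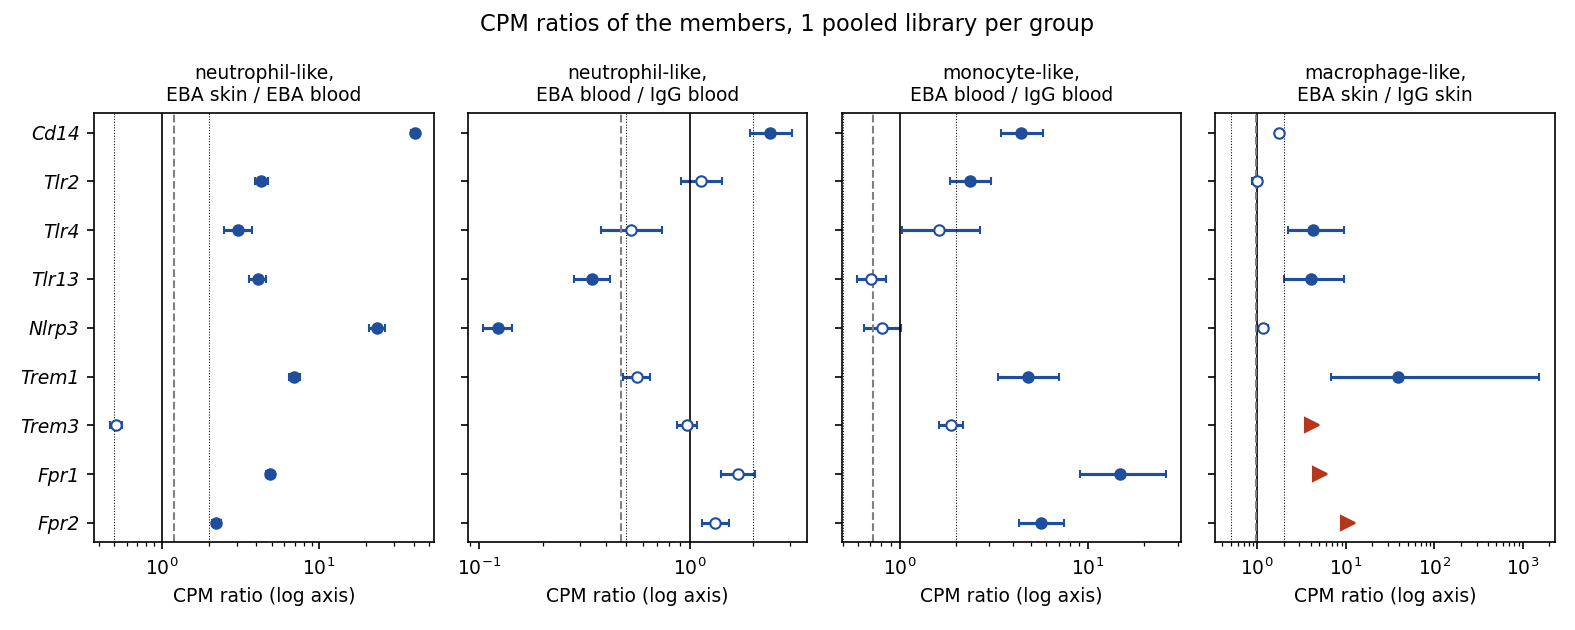
CPM ratio (log axis) of each gene in 4 comparisons, with exact conditional 95% intervals. Filled points were called, the dashed line is the median of all measured features, dotted lines mark ratios of 2 and 0.5, and red triangles are lower bounds against 0 UMIs in IgG skin.

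Monocyte-like cells of blood, 260 in IgG and 337 in EBA, carried the 9 genes at low to moderate levels. In IgG blood, Trem3 was highest at 92.1 CPM, then Tlr13 at 77.6, Nlrp3 at 48.3, Tlr2 at 32.1, Cd14 at 28.9, Fpr2 at 25.7, Trem1 at 14.4, Tlr4 at 9.93 and Fpr1 at 7.22. Neutrophil-like cells of that library were called higher than these for 8 of the 9, where 17.2% of features were, with Tlr13 at 1.56 the exception. In EBA blood the monocyte-like sums were 128 CPM for Cd14, 75.6 for Tlr2, 69.1 for Trem1, 107 for Fpr1 and 144 for Fpr2. These 5 were called higher than in IgG blood, at 4.44-, 2.36-, 4.78-, 14.8- and 5.61-fold, where 6.55% of 7515 features were, and none was lower, where 18.1% were. Relative to the median of all features 7 were higher (10.8% of features) and none lower (6.48%). Tlr4, Tlr13, Nlrp3 and Trem3 were not called, at 1.63, 0.71, 0.81 and 1.88.

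The monocyte-like cells of EBA blood held neutrophil transcripts as well. The 10 neutrophil markers, none at 0, summed to 164432 CPM in them against 5836 in IgG blood, 42.3% of the level in neutrophil-like cells of the same library. Their median depth was 20653 UMIs against 8301. In 67.1% of them, against 11.9% in IgG blood, neutrophil markers made up over 1% of UMIs. Finer clustering placed 222 of the 337 in cluster 12, with 189884 CPM of those markers, a median depth of 27807 UMIs, Fpr1 at 122 CPM and Trem1 at 78.3. The 69 in cluster 4, with 2661 CPM of the markers and no Ly6g, held Fpr1 at 3.03 CPM (3 UMIs) and Trem1 at 6.06. The 43 in cluster 7 had the lowest marker sum, 543 CPM with 4 markers at 0. They held Fpr1 at 51.2 CPM (10 UMIs), Trem1 at 30.7 (6 UMIs) and Fpr2 at 61.5 (12 UMIs). In IgG blood, cluster 7 held them at 10.1, 21.6 and 31.6 CPM. The libraries fill these clusters differently: in IgG blood cluster 12 held 25 cells, cluster 4 held 117 and cluster 7 held 114. Fpr1 in IgG blood was at 23.8 CPM (8 UMIs) in cluster 12 and 0.888 (1 UMI) in cluster 4. Trem1 was at 35.7 and 2.66 CPM in the same order. The part of this shift in the class ratios was not tested. The leading genes of cluster 7 were Ace, Cd300e and Ear2, while those of clusters 4 and 12 included Fn1 and Ccr2. These clusters thus differed in leading genes as well as in the marker sum. The part of neutrophil transcripts in their Fpr1 and Trem1 levels was not tested. Platelet transcripts differed as well: 91.7% of EBA and 56.9% of IgG monocyte-like barcodes held a Pf4 or Ppbp UMI. Among the 28 and 112 without one, only Fpr1 and Fpr2 were called higher, at log2 ratios of 3.22 and 2.19, Tlr13 was lower at -1.10, and Tlr2 turned to -0.25. Without the barcodes over 1%, a choice made after seeing the data, only Cd14 and Fpr1 were called higher, at log2 ratios of 1.13 and 1.83. Those of Trem1 and Fpr2 were then -0.10 and -0.09. Cd14 in cluster 4 alone was at 78.8 CPM in EBA and 39.9 in IgG blood, a log2 ratio of 0.98, and was not called.

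Macrophage-like cells of skin, 148 in IgG and 620 in EBA, held Cd14, Tlr2 and Nlrp3 already without the anti-collagen IgG. Cd14 was at 1039 CPM in IgG and 1836 in EBA skin, a ratio of 1.77 (1.66 to 1.88) that was not called. Tlr2 stood at 265 CPM in both, with a ratio of 1.00 (0.877 to 1.14), and Nlrp3 at 199 and 228, with a ratio of 1.15 (0.987 to 1.34). These intervals leave out a doubling of any of the 3.

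The other 6 genes were called higher in EBA skin, where 5.37% of 7536 measured features were, and none was lower, where 6.40% were. Relative to the median of all features these counts were again 6 and 0, beside 5.98% and 5.76%. Tlr4 was at 8.87 and 37.9 CPM (4.28-fold, 2.21 to 9.49) and Tlr13 at 7.88 and 32.1 CPM (4.07-fold, 2.02 to 9.59). Trem1 had 1 UMI in IgG and 197 in EBA skin, a CPM ratio of 38.7 with an interval of 6.86 to 1536. Fpr1, Fpr2 and Trem3 had no UMI in the IgG class, where 3 UMIs in the class sum would be 2.96 CPM, and 78, 164 and 64 UMIs in EBA. Against that floor they were at least 5.11-, 10.7- and 4.19-fold higher, with lower interval limits of 4.05, 8.63 and 3.31 from the counting error of the EBA sums. In EBA skin these 3 were scarce in macrophage-like cells at 15.1, 31.7 and 12.4 CPM. The calls depended on which cells made up the class: with doublets kept, or with cells named by marker UMIs alone, 3 of the 9 were called higher. With doublets kept, the log2 ratios of Fpr1, Trem1 and Trem3 were 0.00, 0.46 and -0.67, against 1.63 for Tlr4, 1.76 for Tlr13 and 3.50 for Fpr2.

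The summed neutrophil markers in macrophage-like cells were 202 CPM in IgG skin, with Retnlg, Cxcr2 and Ly6g at 0, and 1554 CPM in EBA skin with none at 0. That is 0.938% of the level in neutrophil-like cells of EBA skin, or 2.02% with S100a8 and S100a9 left out. Set against the same cells, Fpr1 in macrophage-like cells was at 1.86%, Trem1 at 5.18%, Fpr2 at 6.53%, Trem3 at 7.78% and Tlr13 at 19.0%. Without barcodes with over 1% neutrophil marker UMIs, again chosen after seeing the data, the same number of genes, 6, was called higher. A pair of finer clusters divides the class: cluster 37, led by Pf4 and the complement genes C1qa, C1qb and C1qc, and cluster 38, led by Chil3 and Mmp12. Cluster 37 held 125 IgG and 341 EBA cells, and cluster 38 held 23 and 279, both used after seeing the data. Cd14 was at 739 and 913 CPM in cluster 37 and at 2725 and 2947 in cluster 38, so the difference between clusters was larger than that between injections within either. Within cluster 37 the log2 ratios of Tlr13 and Tlr4 were 1.73 and 1.47, and that of Fpr2 against the floor of 3 UMIs was 1.91. There 3 genes were called higher.

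Direct comparison within EBA skin placed neutrophil-like above macrophage-like cells for 7 of 9 genes, where 11.3% of 7263 features were called higher and 56.2% lower. The ratio was 53.9 for Fpr1 (43.0 to 68.4), 19.3 for Trem1, 15.3 for Fpr2, 12.9 for Trem3, 5.26 for Tlr13, 3.51 for Cd14 and 3.37 for Nlrp3. Tlr2 at 1.33 (1.23 to 1.44) and Tlr4 at 1.60 (1.31 to 1.95) were not called. The chemoattractant and TREM receptors thus separated the classes far more than the surface Toll-like receptors did. In EBA blood, none of the 9 was called between neutrophil-like and monocyte-like cells, with ratios from 0.757 for Tlr13 to 1.79 for Trem3 and 1.27% of 6475 features called higher and 42.3% lower. The neutrophil markers in that monocyte-like class, given above, apply to these ratios too.

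Outside the phagocytes, Tlr2 reached a level as high as within them in 1 class. Chondrocyte-like cells of the ear, marked by Col2a1 and Acan and 188 and 156 in number, held Tlr2 at 387 CPM in IgG skin (357 to 419) and 336 in EBA skin (313 to 361). The first is the highest Tlr2 level of 41 class and library sums. It did not differ by its interval from neutrophil-like cells of EBA skin at 352 CPM, nor did these from the EBA chondrocyte-like cells. The EBA to IgG ratio in chondrocyte-like cells was 0.868 (0.779 to 0.967), not called, but the class was made up differently in the 2 libraries. Finer cluster 22, again named chondrocyte-like, held 77 of its IgG and 121 of its EBA cells. Finer cluster 21, left unnamed at that resolution, held 111 and 35. After thinning, 12.2% and 14.1% of all chondrocyte-like cells of IgG and EBA skin showed a Tlr2 UMI, against 0.0611% and 0.12% of keratinocyte-like cells. In cluster 22, led by genes such as Col2a1 and Acan, Tlr2 was at 661 CPM in IgG and 405 in EBA skin, and in cluster 21, led by Angptl7 and Mgp, at 128 and 57.2 CPM. The EBA level was thus the lower one within both clusters, by more than in the whole class, and these within-cluster differences were not tested. Chondrocyte-like cells gave 43.1% of the Tlr2 UMIs of IgG skin from 1.91% of all its UMIs. Tlr4 in IgG skin, with 68 UMIs in all, also lay mostly outside phagocytes: fibroblast-like cells gave 61.8% (49.2% to 73.3%), chondrocyte-like cells 25% (15.3% to 37.0%) and macrophage-like cells 13.2% (6.24% to 23.6%). Its level in chondrocyte-like cells was low, at 11.0 and 10.1 CPM in IgG and EBA skin. Fpr1 and Trem3 had 0 UMIs in IgG chondrocyte-like cells. In hair follicle or sebaceous-like cells Tlr2 was at 21.89 CPM in IgG and 5.043 in EBA skin, called lower at 0.2304 (0.09546 to 0.4815). There 6.04% of 7801 features were called lower.

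Fibroblast-like cells held Tlr2 at 48.4 CPM in IgG and 31.2 in EBA skin (ratio 0.64, 0.56 to 0.75, not called) and Tlr4 at 7.26 and 7.15 CPM. The libraries fill different finer fibroblast-like clusters: cluster 29 held 482 IgG and 160 EBA cells, cluster 30 of that clustering 100 and 283, and cluster 40 held 36 and 333, and the part of this in the class ratios was not tested. Cd14 in fibroblast-like cells was at 1.73 and 17.4 CPM, and called higher at 10.0-fold (5.38 to 21.2), 1 of 2 measured genes against 3.15% of 8322 features, with none lower against 3.32%. The relative calls were the same in number, beside 3.27% and 3.18% of features. Neutrophil markers summed to 68.8 CPM in IgG and 412 in EBA fibroblast-like cells. Cd14 there was 0.269% of the neutrophil-like level of EBA skin, and Tlr13, Nlrp3, Fpr1 and Fpr2 in the same cells were at 0.269%, 0.262%, 0.232% and 0.254%. Trem1 and Trem3 were lower, at 0.124% and 0.0818%. Tlr2 and Tlr4, in contrast, were at 8.87% and 11.8%. With free RNA subtracted no gene was called in fibroblast-like cells. Keratinocyte-like cells had none of the 9 measured, all below 10 CPM, and so 0 called, where 3.66% of 6722 features were higher and 2.87% lower, or 4.51% and 2.13% by relative ratio. Cd14 in them was at 0.516 and 8.46 CPM in IgG and EBA skin, the second 0.131% of the neutrophil-like level. The other genes in these cells ran from 0.0861% for Trem3 to 0.855% for Tlr2, with Fpr1 at 0.172% and Fpr2 at 0.186%. Neutrophil markers there summed to 221 and 3699 CPM, of which 148 and 220 came from markers other than S100a8 and S100a9. In chondrocyte-like cells Cd14 was at 23.9 and 92.0 CPM, a ratio of 3.85 (2.70 to 5.62) where 3.72% of 8306 features were called higher. The EBA level was 1.43% of the neutrophil-like level. The other genes in these cells ran from 0% for Trem3 to 95.4% for Tlr2, with Fpr1 at 0.539%. Neutrophil markers summed to 1721 and 3095 CPM in them, but 1719 and 2712 of that came from markers other than S100a8 and S100a9, with Ly6g and Mmp9 at 0 in both, and IgG skin held 1 neutrophil-like cell. That sum is therefore a poor measure of neutrophil transcripts in these cells, and their part in the Cd14 values of keratinocyte-like and chondrocyte-like cells was not tested. Cd14 was also called higher in unnamed cluster 16 of skin, led by Ube2c and Top2a. It was at 0.6179 CPM (2 UMIs) in IgG and 38.67 in EBA, a ratio of 62.59 (16.88 to 523.9). There 7.97% of features were called higher. T cell-like cells of skin held it at 5.275 (3 UMIs) and 25.02 CPM, called higher at 4.742 (1.459 to 24.42) beside 10.3% of features. The part of neutrophil transcripts was again not tested. Cd14 was not called in unnamed clusters 30 and 31, at 0.575 and 1.23.

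**Figure D4:**
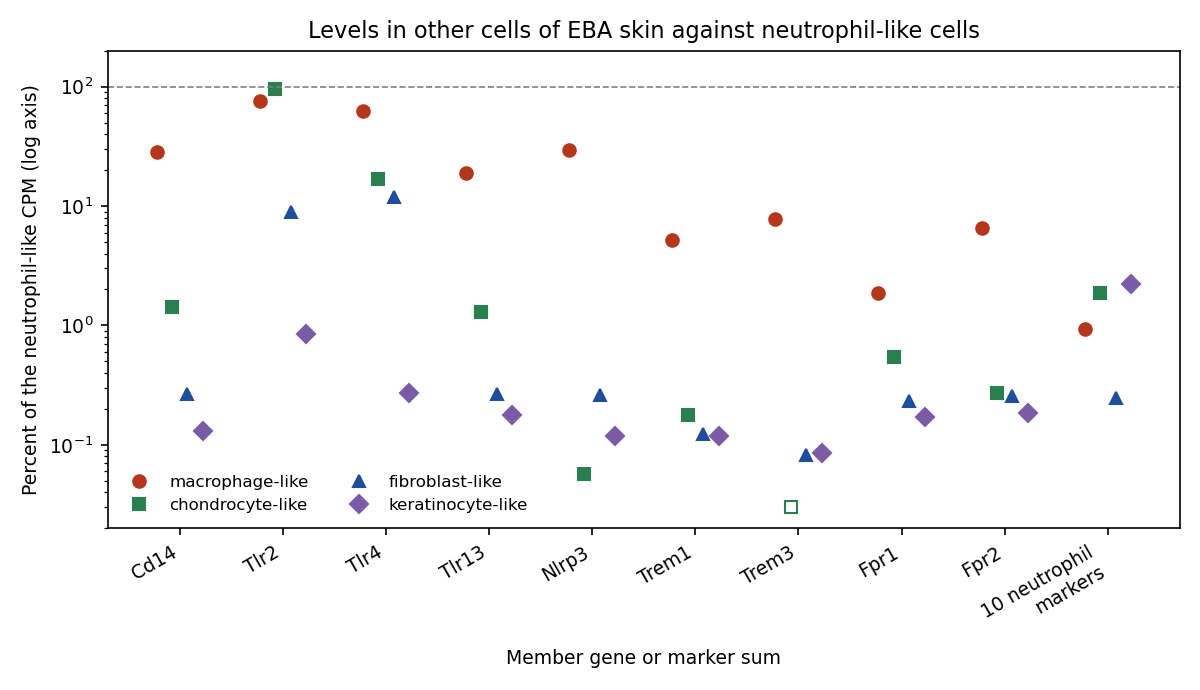
CPM of each gene, and of 10 neutrophil markers summed, in 4 other classes of EBA skin as a percent of the CPM in its neutrophil-like cells (log axis; the dashed line is 100%, and the open square stands for 0 UMIs). For the 9 genes, fibroblast-like and keratinocyte-like points lie below 1% except Tlr2 and Tlr4 of fibroblast-like cells, at 8.87% and 11.8%.

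Cluster 30 of skin, led by Cd207 and the antigen presentation genes H2-Ab1 and Cd74 and left unnamed, held 90 IgG and 110 EBA cells. It carried Cd14 at 645 and 371 CPM, with a ratio of 0.575 (0.508 to 0.651) that was not called and lay opposite in direction to macrophage-like cells. Nlrp3 was at 333 and 282 CPM, the highest level after neutrophil-like cells of EBA skin, with the EBA sum not apart from the 268 CPM of IgG blood neutrophils. Fpr1 had no UMI in either.

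Ordered by level, neutrophil-like cells of EBA skin came first for Cd14, Tlr4, Tlr13, Nlrp3, Trem1, Fpr1 and Fpr2, each apart from the next sum by its interval. The exceptions were Tlr2, given above, and Trem3, for which neutrophil-like cells of IgG blood at 320 CPM and EBA blood at 310 led and were not apart.

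**Figure D5:**
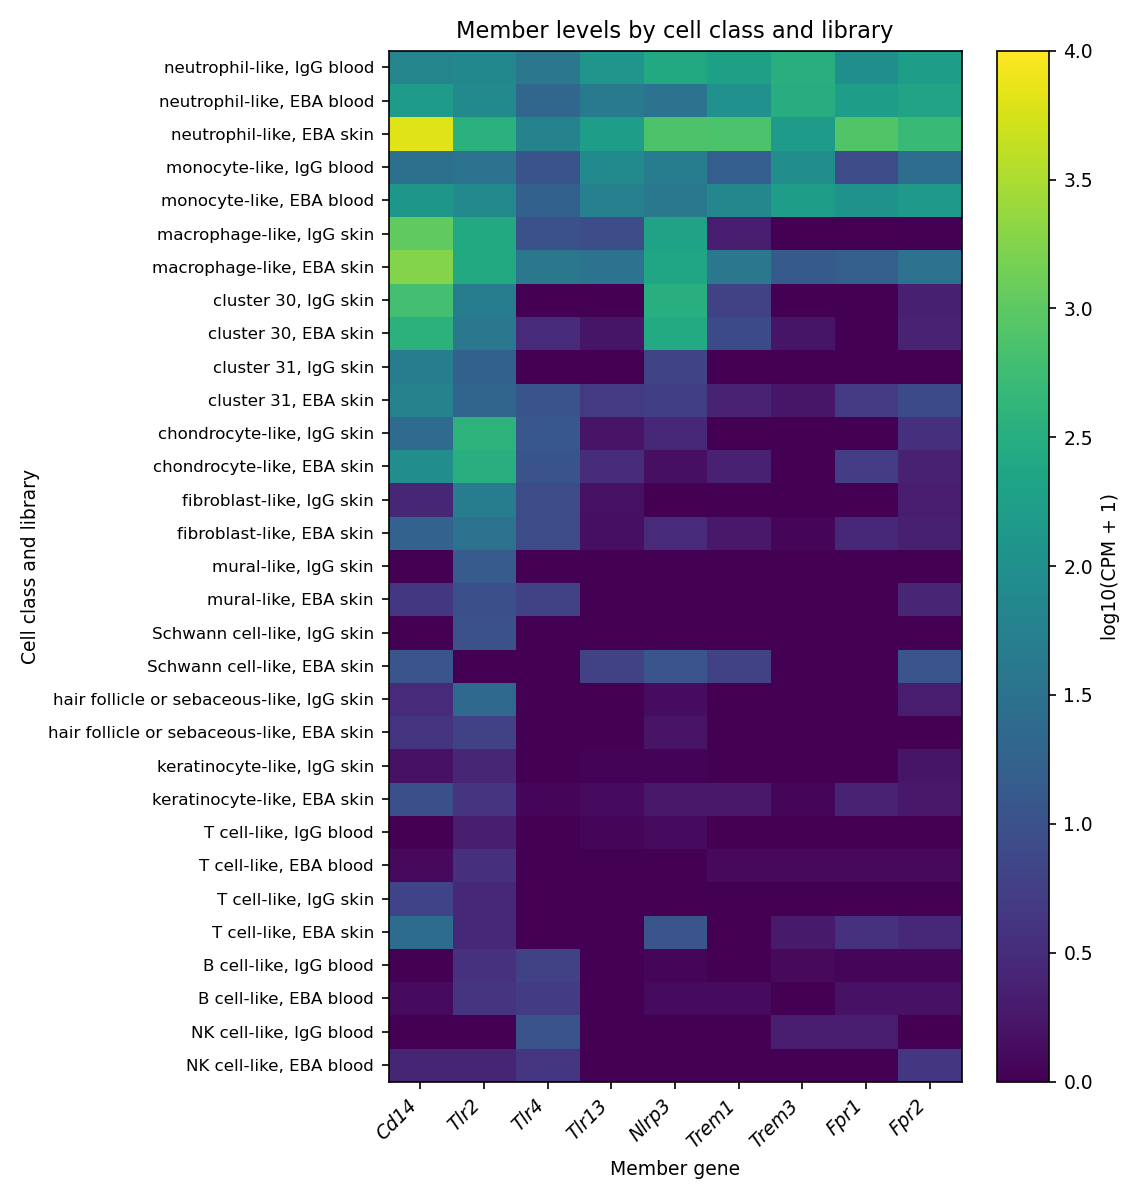
Level of each gene, as log10(CPM + 1), by cell class and library. The highest value is Cd14 in EBA skin neutrophil-like cells (6445 CPM), and Tlr2 is high in chondrocyte-like cells (387 and 336 CPM).

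Over whole libraries, changes in cell composition enter. Cd14 was at 7.34 and 91.9 CPM in the IgG and EBA libraries of blood, and at 20.96 and 456 CPM in those of skin. In EBA over IgG blood 7 of 9 genes were called higher (7.05% of 7966 features), with Tlr13 at 1.87 and Nlrp3 at 1.03 not called, and none lower (36.1%). By relative ratio 8 were higher (14.6%) and none lower (6.19%). A Pf4 or Ppbp UMI was held by 44.96% of EBA and 19.98% of IgG blood barcodes, and without these 3 genes were measured and all 3 called higher. In skin, all 7 measured genes were called higher (14.2% of 8207 features) and none lower (3.56%), and the same counts by relative ratio stood beside 13.9% and 3.89%, and Tlr4 and Trem3 stayed under 10 CPM. Fpr1 and Trem3 had no UMI in the 80878765 UMIs of kept IgG skin cells. Against a floor of 3 UMIs per library, Fpr1 at 41.0 CPM in EBA skin was at least 1106-fold higher, with a lower interval limit of 899. Neutrophil-like cells, with 4.73% of the UMIs of EBA skin, gave 93.7% of its Fpr1, 90.5% of Trem1, 87.9% of Trem3, 87.5% of Fpr2, 74.8% of Tlr13, 66.8% of Cd14, 60.8% of Nlrp3, 36.8% of Tlr4 and 29.9% of Tlr2 UMIs. Fewer cells of a type and less RNA per cell cannot be told apart in such sums.

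Other genes of these pathways were followed in neutrophil-like cells of EBA skin over EBA blood, in 9 lists of 77 genes, to be read against the 33.1% higher and 22.0% lower of all measured features. Signalling inhibitors of the Toll pathway had 5 of 5 measured genes higher, with a median log2 ratio of 4.07 against 0.26 over all features. They included Tnfaip3, which encodes the ubiquitin-editing enzyme A20, at 433 CPM against 1.58 (274-fold, 165 to 490), the NF-kB inhibitor Nfkbia at 2882 against 151 CPM (19.0-fold) and Tnip1 at 279 against 16.7 CPM (16.7-fold). Toll signalling genes had 5 of 8 higher and 1 lower (median log2 ratio 1.19), but 3 and 3 relative to the median of all features: the kinase gene Irak2 was at 289 against 8.01 CPM (36.1-fold), the transcription factor Irf5 at 50.6 against 7.80, and Irak4 lower at 14.3 against 46.8. Of the other Toll-like receptors, both measured genes of 10 were higher (median 2.29), Tlr6 at 75.3 against 15.0 CPM and Tlr1 at 34.6 against 7.28, both partners of Tlr2. Among co-receptors, 2 of 5 were higher and 1 lower, with a median of -0.35. Ly96, which encodes MD-2, was at 46.2 against 18.0 CPM and the chaperone Hsp90b1 at 72.4 against 29.5, and Lbp, the lipopolysaccharide-binding protein, was lower at 2.33 against 35.5 CPM.

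Of 12 measured inflammasome genes, 5 were higher and 3 lower (median 0.48), or 4 and 4 relative to the median of all features, with Il1b at 5626 against 509 CPM (11.0-fold), Mefv, which encodes pyrin, at 360 against 22.7 and the DNA sensor Aim2 at 25.3 against 4.22. The TREM list had 2 of 7 higher and 3 lower, with a median of -0.37. Treml4 was at 64.0 against 10.1 CPM, and Pglyrp1, whose product is a ligand of TREM1, was lower at 322 against 1955. The platelet gene Treml1 had 0 UMIs in skin and 175 CPM in blood, 201-fold lower against a floor of 3 UMIs. Chemoattractant receptors other than the Fpr pair had 2 of 5 higher and 1 lower (median -0.14), Ptafr for platelet-activating factor at 910 against 61.7 CPM and C5ar1 for complement C5a at 591 against 235. The leukotriene receptor Ltb4r1 was lower at 66.0 against 298. Of 4 endogenous ligands (1 higher, 2 lower, median -1.88), Saa3 was at 485 against 0.422 CPM. Camp and Anxa1, both ligands of FPR2, were lower at 124 against 7812 and 197 against 2425. No free RNA was subtracted from these sums. Saa3 was also among the leading genes of fibroblast-like finer cluster 40 of skin and monocyte-like finer cluster 12 of blood. Cytosolic sensors, with a median of -0.36, had 1 of 4 higher, Nod2 at 16.6 against 1.48 CPM, and 2 lower, Zbp1 at 10.47 against 30.9 and Ddx58 at 17.2 against 36.2.

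Across 40 sums of a class in a library, genes with the most similar pattern were ranked by Pearson r of log2(CPM + 10) among 5510 candidates. These sums share libraries and cell types, so r is a description. For Cd14 they were Slc7a11 (0.92), Clec4e (0.91) and Lilr4b (0.91), and for Nlrp3 they were Il1b (0.96), Lilrb4a (0.96) and Ptafr (0.96). Tlr2 was closest to Sgms2 (0.89), Tnfaip2 (0.81) and Plaur (0.80). Tlr4 was closest to Bst1 (0.86), C5ar1 (0.86) and Cd33 (0.83), and Tlr13 to Fcgr4 (0.96), Csf3r (0.96) and Sirpb1c (0.95). Fpr1 and Fpr2 shared Gm5483, Stfa2l1 and Hdc (0.97 to 0.99). Trem1 was closest to Gm5483, Stfa2l1 and A530064D06Rik (0.97 each) and Trem3 to Siglece, Pilrb2 and Cxcr2 (0.98 each). Between the 9 genes themselves, r ran from 0.45 for Tlr2 and Trem3 to 0.97 for Fpr1 and Fpr2, and was 0.90 for Cd14 and Nlrp3.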

How the data were processed

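Single-cell RNA was profiled with 10x 3′ version 3 libraries in 4 groups of 1 pooled library each. Per the submitters' processing notes, Cell Ranger 3.0.0, Seurat 3.0.0 and 3.1.0 and the build mm10 were used. The authors deposited raw UMI counts per gene and barcode, with no normalization. Barcodes with at least 200 genes and at most 10% mitochondrial UMIs were kept, and those with the highest Scrublet scores, 0.8% per 1000 barcodes, were removed as doublets. Cells were clustered in scanpy 1.11.5 (2000 variable genes without any listed gene, 30 components, 15 neighbours, Leiden resolution 1, or 2 for finer clusters). Clusters were named from 180 markers of 25 cell types, by a rule settled after the clusters were seen, so class names and sizes rest on that choice. UMIs were summed per class and library with at least 20 barcodes. Ratios carry exact conditional 95% intervals and shares exact binomial ones, and a sum of 0 UMIs was set against a floor of 3. These cover counting error alone, not mice or preparations. CPM are shares, so a very abundant transcript moves all other ratios, and ratios relative to the median of all features stand beside them. TMM factors came from edgeR 4.0.16. The ratio calculation was tested on simulated data. There, calls by CPM ratio among unchanged genes exceeded the limit first set for them, and calls by relative ratio did not. Few genes were changed in that simulation, while many features were called in several comparisons here, so it cannot rank the 2 ratios. A CPM call without a relative call depends on the scaling and is to be read with caution. The genes named were the 9 members, up to 3 called genes per pathway list by the interval bound nearest to 1, and the 3 most similar genes of each member. The members and lists were chosen with earlier results of these data known. Positions are from GENCODE mouse release 21.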

Additional observations from a re-analysis of the deposited data

Results flagged for a closer look

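The direction of EBA over IgG differed between comparisons for 2 genes, and these differences were not tested, since each group is 1 pooled library. Nlrp3 had a log2 ratio of -3.03 in neutrophil-like cells of blood and of 3.34 over all kept cells of skin. Tlr13 had a log2 ratio of -1.54 in neutrophil-like cells of blood, 2.03 in macrophage-like cells of skin and 5.51 over all kept cells of skin. Values over all kept cells also carry cell composition, so they are not like those within a class. For Nlrp3 the log2 ratio was 0.198 in macrophage-like cells of skin and 0.041 over all kept cells of blood, neither called. For Tlr13 it was 0.905 over all kept cells of blood, not called. Relative to the median of all measured features the blood values were -1.94 for Nlrp3 and -0.46 for Tlr13, the second not called. The pairs of comparisons looked at were widened after a first, narrower choice had returned none.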

How the results depend on the processing

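Each group is 1 pooled library, so leaving out a replicate was not possible. No paired analysis was possible because the groups share 1 replicate number only. Of 198 counts of genes called under other settings, 166 stayed within 1.5 times the reported count and 32 did not. Of 564 log2 ratios under them, 392 lay within the counting interval, 168 moved beyond it and 4 changed sign after being called. Of the settings added after seeing the data, 9 of 22 counts and 65 of 99 ratios moved, and 5 ratios changed sign. For the values below, the cause was not tested.

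In EBA skin over EBA blood neutrophil-like cells, the count of lower genes was 1 in place of 0 with cells named by marker UMIs alone, relative to the median, with TMM factors, without blood barcodes holding a Pf4 or Ppbp UMI, and against cluster 14 alone. In EBA over IgG blood, 5 were higher and 1 lower relative to the median or with TMM factors, 0 and 4 without those platelet-marked barcodes (Cd14 at -0.96) or with cluster 14 alone, and 0 and 1 at a ratio limit of 3. In EBA skin over IgG blood, 0 were lower in place of 1 with doublets kept, at Leiden resolution 2, relative to the median, with TMM factors, with free RNA subtracted and at a limit of 3. Unthinned shares were higher for 4 genes and lower for 2, in place of 8 and 1.

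In monocyte-like cells, 2 in place of 5 were higher with marker-named cells, without platelet-marked barcodes (1 lower, Tlr2 at -0.25) and without barcodes over 1% neutrophil markers (Trem1 at -0.10, Fpr2 at -0.09). Finer cluster 4 alone gave 1 higher (Fpr2 at -0.04), cluster 7 alone gave 1 (Tlr2 at -1.17), and cluster 12 alone gave 5 higher and 1 lower. In macrophage-like cells, 3 in place of 6 were higher with doublets kept (Trem3 at -0.67), with marker-named cells (Trem3 at -0.01), in finer cluster 37 (Trem3 at -0.13) and in cluster 38. Keratinocyte-like cells had 1 higher with doublets kept, 3 when named by markers and 6 with no filter on low counts, in place of 0. Fibroblast-like cells had 0 higher with free RNA subtracted and 3 with no filter, in place of 1. Over all blood cells, 3 in place of 7 were higher without platelet-marked barcodes, and 1 was lower by the mean CPM of each cell.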

Other observations

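Tlr4 was seen at a low level in blood B cells. B cell-like cells of IgG blood had 38 Tlr4 UMIs in 2074 barcodes (4.84 CPM, 3.42 to 6.64), 21 of Tlr2 and 0 of Cd14. Those of EBA blood had 14 in 802 barcodes (4.03 CPM, 2.20 to 6.76), 11 of Tlr2 and 1 of Cd14. T cell-like cells of both blood libraries had 0 Tlr4 UMIs in 1200 and 623 barcodes, where 3 UMIs in the class sum would be 0.43 and 0.744 CPM. NK cell-like cells of IgG blood had 9 UMIs in 231 barcodes (9.71 CPM, 4.44 to 18.4). Those of EBA blood had 2 in 183 barcodes (3.26 CPM), and the interval of the ratio, 0.035 to 1.62, covered 1.

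Fpr2 had 63 UMIs in IgG skin, of which 45 (71.4%, 58.7% to 82.1%) lay in keratinocyte-like cells, which held 79.1% of all UMIs there.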
